A study of Mus musculus with 6 samples.

Results

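The genes described here were 40 named genes of the lysosome, the acidic compartment in which a cell takes apart its own worn material and what it has taken up. They comprised 12 glycosidases, 5 sulfatases, 10 cathepsins and other peptidases, 6 lipid enzymes and carriers, 6 membrane proteins and the transcription factor *Tfeb*, out of 54356 annotated genes. The members were chosen by their function in the lysosome with the fold changes and calls of the same comparison known, so the members' values below are a description and carry no test of their own. All 40 were found in the data, and 39 passed the filter on low counts. The exception was *Ctss*, which had 0 to 0.99 CPM (estimated counts per 1000000 counts of a library) in the 6 libraries.

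RNA was measured in hearts of C57BL/6 mouse embryos at embryonic day (E) 9.5, with 3 libraries from embryos globally deleted for *Flnc* (FlncgKO) and 3 from littermate controls. *Flnc* encodes filamin C, a protein of muscle that crosslinks actin filaments. The paper generated the global knockout by crossing mice with a floxed *Flnc* allele to *Sox2*-driven Cre mice, which deletes exons of *Flnc*. The alleles carried by the controls are not given in the labels, nor is the number of hearts behind a library or whether libraries came from separate litters, so p-values measure only the spread between these samples.

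Lysosomal hydrolases are made in the endoplasmic reticulum, tagged with mannose 6-phosphate and carried to the lysosome, where each removes a particular sugar, sulfate, lipid or peptide bond. Loss of a single enzyme leaves its substrate undigested, and inherited deficiencies of many of the enzymes listed here cause storage disorders, several of which, such as the deficiency of acid alpha-glucosidase, affect the heart. TFEB is a transcription factor known to bind a short DNA element, the CLEAR element, in the promoters of many of these genes.

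The libraries held 19208859 to 23123255 estimated counts. *Flnc* was at 845, 623 and 746 CPM in the controls and at 127, 111 and 240 CPM in the FlncgKO hearts, that is 21.6% of the control mean (adjusted p = 0.0656 in edgeR's quasi-likelihood F-test and 9.95e-07 in DESeq2). Some libraries stood apart in ways the genotype does not name. The summed level of 17 trophoblast genes, a list chosen after the data were seen, was 74.8, 6.81 and 1426 CPM in the controls and 233, 15.4 and 2370 CPM in FlncgKO, so that both libraries numbered 3 held far more of these placental transcripts than the others. The summed level of 4 Y-linked genes was 117, 140 and 122 CPM in the controls against 80.7, 3.88 and 4.28 CPM in FlncgKO. The 14 platelet and megakaryocyte markers, by contrast, differed between the genotypes. They summed to 96.7, 74.7 and 111 CPM in the controls and 1246, 780 and 242 CPM in FlncgKO. The paper reports higher expression of blood coagulation genes in FlncgKO hearts, and thrombi where the heart wall had ruptured. Because the samples are bulk tissue, fewer cells of a type and less RNA per cell cannot be told apart.

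Most of the lysosomal genes differed little between the genotypes, and a few hydrolases were clearly higher in the FlncgKO hearts. The median log2 fold change (FlncgKO minus control) of the 39 tested members was 0.15, with quartiles of 0.03 and 0.32 and extremes of -0.40 for *Tfeb* and 2.04 for *Hpse*. Over all 16048 genes tested the median was 0.009, with quartiles of -0.12 and 0.19. In edgeR's quasi-likelihood F-test, adjusted by the Benjamini-Hochberg method over all genes, with a threshold of 0.05, 4 members were called higher, namely *Hexa*, *Naglu*, *Hpse* and *Ctsa*, and 0 were called lower. Of all genes tested, 1.31% were called, 1.06% higher and 0.249% lower. By unadjusted p (under 0.05) the same fit held 14 members higher and 4 lower, against 13.3% and 8.84% of all genes tested. DESeq2 called 6 members higher and 1 lower, where it called 6.08% of the genes tested higher and 2.25% lower. All 3 FlncgKO libraries lay above all 3 controls for 17 members and below them for 5, against 15.7% and 14.1% of all genes tested. The log2 fold change was positive for 31 members, against 51.6% of all genes tested. Without both libraries numbered 3 it was positive for 27 members, with a median of 0.125. In units of log2, the members' median deviation from their control means was 0.08, 0.13 and 0.17 in FlncgKO replicates 1, 2 and 3, and -0.03, 0.01 and -0.006 in the controls.

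**Figure D1:**
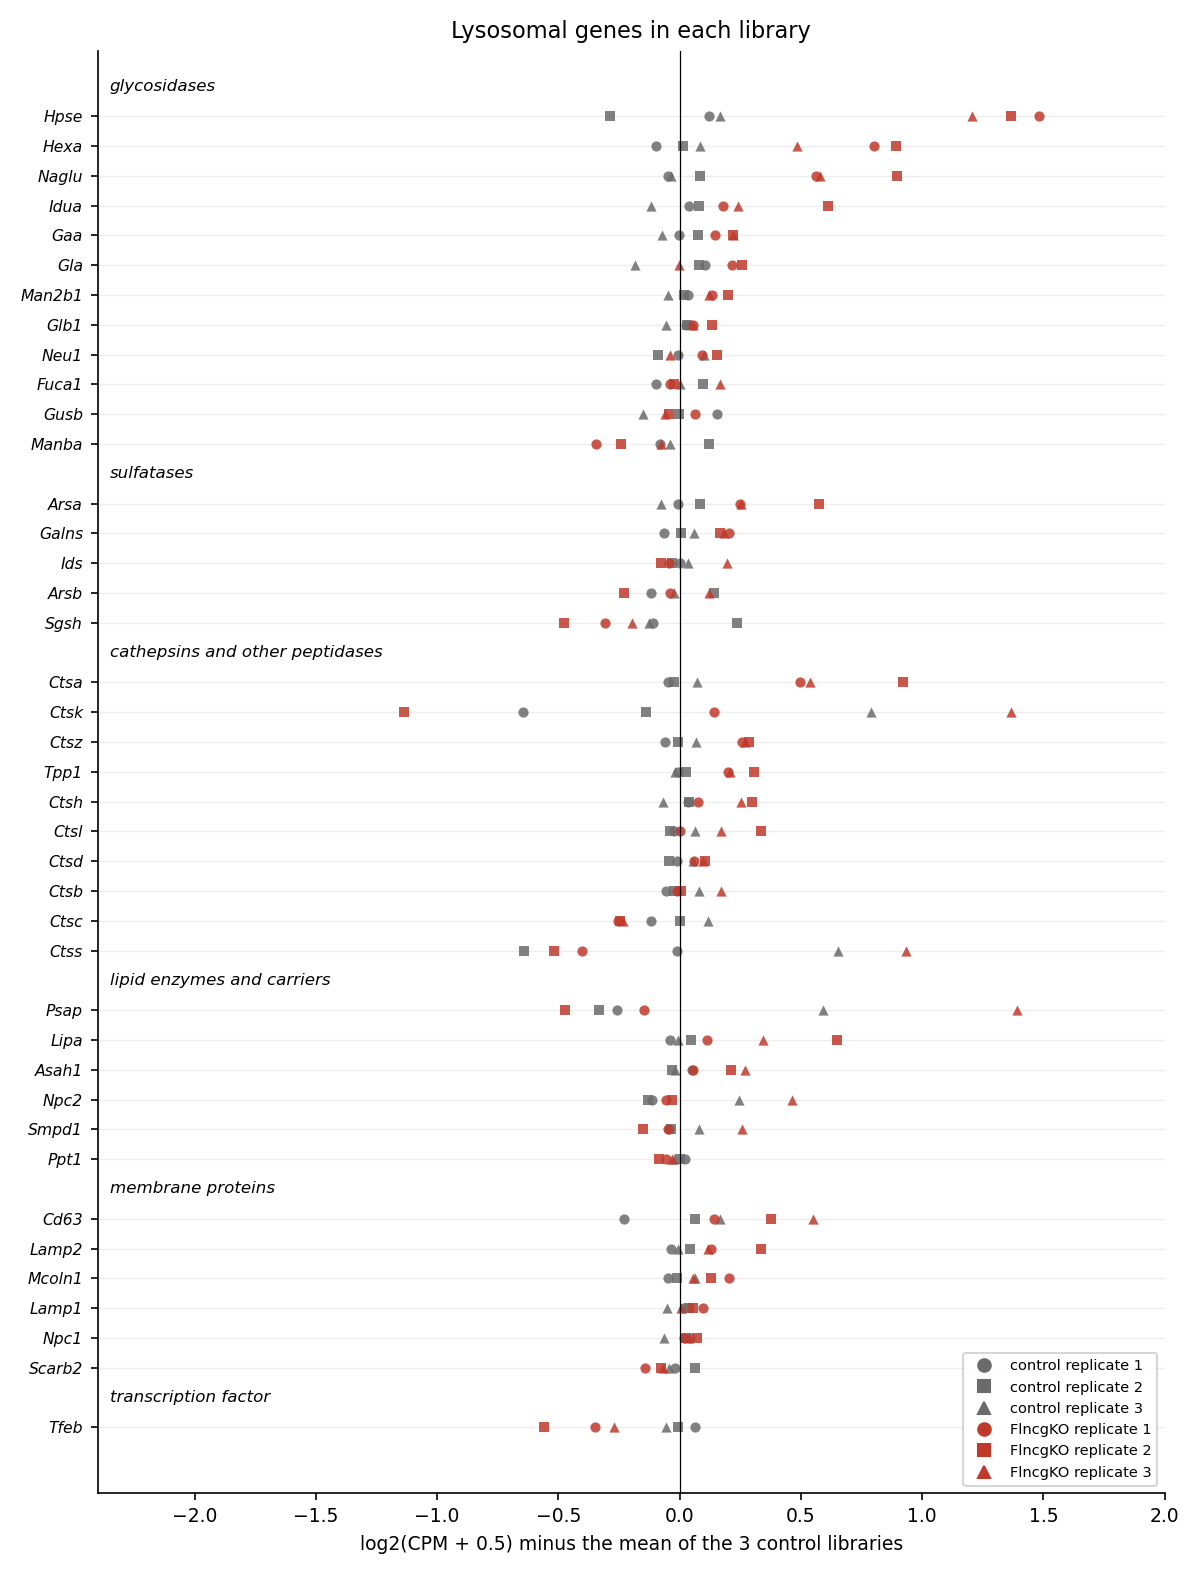
Level of each of the 40 lysosomal genes in each library, as log2(CPM + 0.5) minus the mean of the 3 controls, by class. The FlncgKO points of *Hpse*, *Hexa*, *Naglu* and *Ctsa* lie right of every control, those of *Tfeb* lie left, and *Psap*, *Ctsk* and *Ctss* spread widely within both genotypes.

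The promoters of the 4 called members are shown beside those of 3 members that carry the E-box, the centre of the CLEAR element, and differed little. Each sequence is the 100 bases before a transcription start in RefSeq (build GRCm38.p6), written 5′ to 3′ on the gene's strand, with every E-box, the letters CACGTG, in capitals.
*Hexa*, chr9:59539440-59539539, plus strand: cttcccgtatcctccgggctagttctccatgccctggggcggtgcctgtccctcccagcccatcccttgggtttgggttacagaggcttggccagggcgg
*Naglu*, chr11:101069994-101070093, plus strand: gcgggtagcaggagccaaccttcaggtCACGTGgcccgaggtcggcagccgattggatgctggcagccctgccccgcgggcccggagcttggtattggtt
*Hpse*, chr5:100719717-100719816, minus strand: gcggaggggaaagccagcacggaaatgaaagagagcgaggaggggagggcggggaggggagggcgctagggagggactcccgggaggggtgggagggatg
*Ctsa*, first start, chr2:164832772-164832871, plus strand: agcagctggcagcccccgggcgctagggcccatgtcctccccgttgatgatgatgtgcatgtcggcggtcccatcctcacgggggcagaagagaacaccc
*Ctsa*, second start, chr2:164833673-164833772, plus strand: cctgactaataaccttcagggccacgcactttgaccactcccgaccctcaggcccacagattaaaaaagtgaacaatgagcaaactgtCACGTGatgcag
*Ctsd*, chr7:142387828-142387927, minus strand: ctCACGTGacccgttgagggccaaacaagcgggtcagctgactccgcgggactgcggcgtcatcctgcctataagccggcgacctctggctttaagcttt
*Lamp1*, chr8:13159061-13159160, plus strand: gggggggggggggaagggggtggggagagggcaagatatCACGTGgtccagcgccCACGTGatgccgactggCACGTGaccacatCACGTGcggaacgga
*Mcoln1*, chr8:3500419-3500518, plus strand: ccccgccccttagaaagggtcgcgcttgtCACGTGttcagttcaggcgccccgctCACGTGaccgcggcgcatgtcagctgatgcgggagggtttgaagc
The sequences of *Hexa*, *Hpse* and the first start of *Ctsa* held no E-box in these windows. The second start of *Ctsa* held an E-box 12 bases before the start, and that of *Naglu* lay 73 bases before it. *Lamp1* had 4, at 61, 45, 28 and 15 bases before the start, and *Mcoln1* had 2, at 71 and 45 bases. The log2 fold changes of *Ctsd*, *Lamp1* and *Mcoln1* were 0.09, 0.05 and 0.13, and these 3 were picked with their values known. The remaining members with an E-box in the longer promoters described next were *Arsa*, *Gaa*, *Ctsl*, *Gla*, *Glb1* and *Sgsh*. Their log2 fold changes were 0.380, 0.194, 0.175, 0.164, 0.083 and -0.344.

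RefSeq promoters, taken as 250 bases before to 50 bases after a start, were matched for 35 of the 40 genes and gave 39 promoters. *Galns*, *Npc1*, *Ctsb*, *Asah1* and *Ctsh* were not matched. The E-box was found in 11 of the 39 (28.2%), in 11 different genes, and in 7.15% of all 32851 promoters of the same length. With T before it and A after it (TCACGTGA, the core of the CLEAR element, every match of which is also an E-box) it was found in 4 of the 39 (10.3%), those of *Ctsa*, *Ctsd*, *Gla* and *Mcoln1*, and in 0.974% of all promoters. Both strings read the same on either strand. The E-box was in 4 of 12 promoters of glycosidases, 2 of 4 of sulfatases, 3 of 9 of cathepsins and other peptidases, 2 of 5 of membrane proteins and 0 of 6 of lipid enzymes and carriers. A match is a string of letters and not a measured site of binding.

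**Figure D2:**
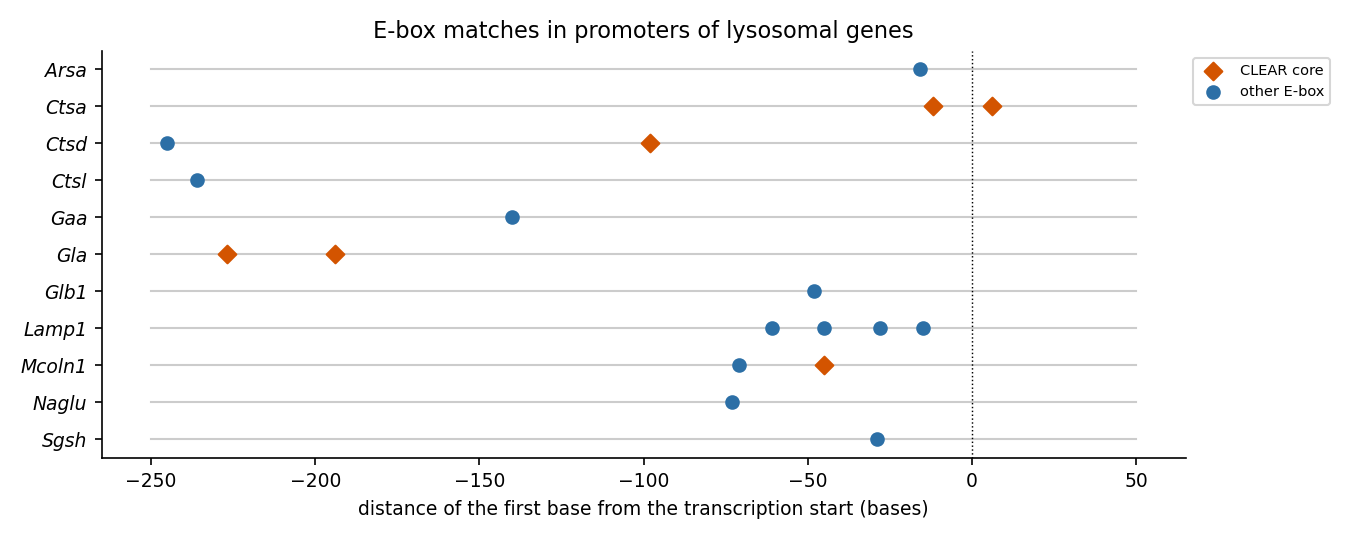
Position of each E-box in the promoters of the 11 lysosomal genes that held the motif, as the distance of its first base from the transcription start in bases; diamonds mark the CLEAR core. The matches of *Lamp1* and *Mcoln1* lie within 71 bases before the start, and that of *Ctsl* lies 236 bases before it.

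Among the glycosidases, the enzymes that take sugars off glycolipids, glycoproteins and glycosaminoglycans, 3 of 12 were called higher, against 1.06% of all genes tested. *Hexa* (ENSMUSG00000025232, chr9:59539540-59565109, plus strand) encodes the alpha subunit of beta-hexosaminidase, which trims GM2 ganglioside. It was at 34.7, 37.5 and 39.4 CPM in the controls and at 65.0, 69.3 and 52.1 CPM in FlncgKO, with means of 37.2 ± 2.34 and 62.1 ± 8.91 CPM (SD, n = 3). The lowest FlncgKO library lay well above the highest control, and the log2 fold change was 0.74 ± 0.11 (SE), that is 1.67-fold. *Naglu* (ENSMUSG00000001751, chr11:101070012-101077672, plus strand) encodes the N-acetylglucosaminidase that works on heparan sulfate. It was at 8.46, 9.31 and 8.55 CPM in the controls and at 13.2, 16.8 and 13.3 CPM in FlncgKO. The groups did not overlap, and the log2 fold change was 0.72 ± 0.12 (SE), or 1.65-fold.

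*Hpse* (ENSMUSG00000035273, chr5:100679484-100719716, minus strand) encodes heparanase, which cuts heparan sulfate chains within their length and is also stored by platelets. It had the largest log2 fold change of the members and the smallest counts among those tested. Its estimated counts were 12, 6 and 12 in the controls and 49, 45 and 33 in FlncgKO, which is 0.55, 0.29 and 0.58 against 2.19, 1.99 and 1.72 CPM. Every FlncgKO library was higher than every control, with a log2 fold change of 2.04 ± 0.31 (SE), or 4.12-fold. The FlncgKO libraries stood in the same order for *Hpse* as for the platelet markers, though *Hpse* varied far less, and the part of platelets in this result was not tested.

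The calls of these glycosidases and of *Ctsa* depended on the settings and on which libraries were kept, while their direction did not. With all 6 libraries and transcript length offsets edgeR called 0 members and 76 of all genes tested. There 12 members were higher and 2 lower by unadjusted p (under 0.05). RLE scaling and library totals each left *Ctsa* uncalled. No member was called by edgeR without control replicate 1, 2 or 3 or without FlncgKO replicate 1. In these settings 1, 1, 110 and 34 genes were called over all genes tested. By unadjusted p (under 0.05) 9, 11, 9 and 14 members were higher there, and 3, 2, 2 and 2 were lower. Only *Ctsa* was called without FlncgKO replicate 2, where 38 of all genes tested were called. All 4 were called without FlncgKO replicate 3, a setting in which *Tfeb* was called lower and 7.78% of all genes tested were called (6.05% higher). Without both libraries numbered 3, where 7.69% of all genes tested were called, *Ctsz* was called besides the 4. Over the 14 alternative settings the log2 fold change was 0.66 to 0.90 for *Hexa*, 0.56 to 0.77 for *Naglu*, 1.79 to 2.29 for *Hpse* and 0.45 to 0.76 for *Ctsa*. With the Y-linked level as a covariate edgeR called 0 members and 0 of all genes tested. By unadjusted p (under 0.05) 5 members were higher and 1 lower in that fit, and the median of the members was 0.05. The Y-linked level was lower in every FlncgKO library than in every control, so this fit cannot cleanly separate the covariate from the genotype.

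The other 9 glycosidases were not called. *Gusb*, the beta-glucuronidase, was at 47.5, 42.6 and 38.4 CPM in the controls and 44.6, 41.3 and 40.9 CPM in FlncgKO, so the groups overlapped (log2 fold change -0.02 ± 0.09 SE). *Manba*, the beta-mannosidase, was at 28.2, 32.5 and 29.0 CPM against 23.4, 25.2 and 28.3 CPM, with a log2 fold change of -0.22 ± 0.10 (SE). Only FlncgKO replicate 3 of *Manba* reached the range of the controls. The log2 fold changes of *Idua*, *Gaa*, *Gla*, *Man2b1*, *Glb1*, *Neu1* and *Fuca1* were all positive, from 0.04 for *Fuca1* to 0.37 for *Idua*, which encodes the iduronidase of heparan and dermatan sulfate. The 12 glycosidases summed to 332, 341 and 321 CPM in the controls and 379, 400 and 371 CPM in FlncgKO, and 7 of the 12 lay above the controls in every FlncgKO library, against 15.7% of all genes tested.

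**Figure D3:**
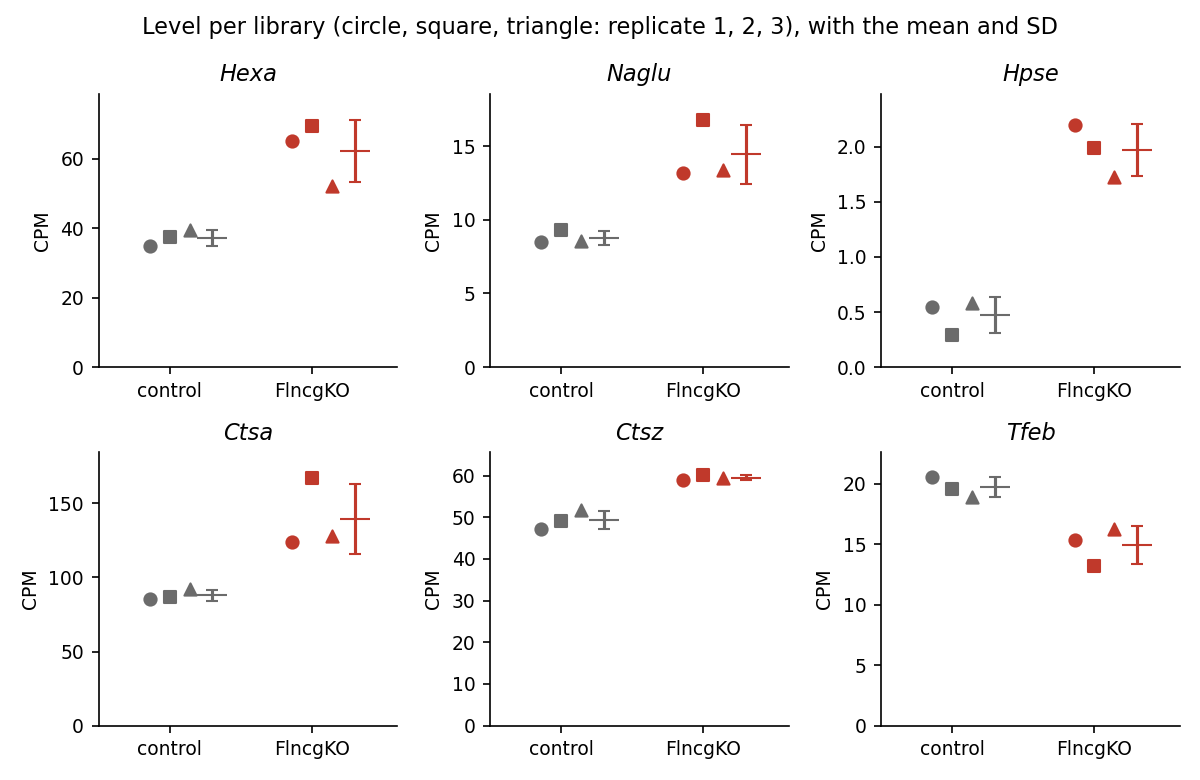
CPM of *Hexa*, *Naglu*, *Hpse*, *Ctsa*, *Ctsz* and *Tfeb* in each library, with the mean and SD of 3 libraries per genotype; each axis starts at 0. The 3 FlncgKO points lie above the 3 controls for the 5 enzymes and below them for *Tfeb*.

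None of the 5 sulfatases, which remove sulfate groups from glycosaminoglycans and sulfatides, was called by edgeR or DESeq2. By unadjusted p (under 0.05) in edgeR 1 was higher and 1 lower, against 13.3% and 8.84% of all genes tested. *Arsa*, the arylsulfatase that acts on sulfatide, was at 11.8, 12.6 and 11.2 CPM in the controls and 14.1, 17.8 and 14.2 CPM in FlncgKO (log2 fold change 0.38 ± 0.12 SE). *Galns*, which acts on keratan sulfate, was at 11.7, 12.3 and 12.8 CPM against 14.1, 13.8 and 13.9 CPM (0.19 ± 0.08 SE). Both lay above the controls in every FlncgKO library. *Sgsh*, which like *Naglu* serves heparan sulfate, went the other way and was at 14.7, 18.8 and 14.5 CPM against 12.7, 11.3 and 13.8 CPM (log2 fold change -0.34 ± 0.13 SE). *Arsb* was at 8.10, 9.80 and 8.70 CPM against 8.58, 7.46 and 9.65 CPM, with groups that overlapped. *Ids*, the iduronate sulfatase, had a log2 fold change of 0.03.

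Among the cathepsins and other peptidases, *Ctsa* was the 1 called gene of 9 tested, against 1.06% called higher of all genes tested. *Ctsa* (ENSMUSG00000017760, chr2:164832873-164841032, plus strand) encodes the protective protein, a carboxypeptidase that holds beta-galactosidase and neuraminidase 1 in a complex. It was at 85.1, 86.5 and 92.3 CPM in the controls and 124, 167 and 128 CPM in FlncgKO, with means of 88.0 ± 3.79 and 139.6 ± 23.6 CPM (SD, n = 3). The groups did not overlap, and the log2 fold change was 0.67 ± 0.12 (SE), or 1.59-fold. The genes of its partner enzymes, named here for that role after their values were seen, differed less. *Glb1* was at 27.4, 27.6 and 25.9 CPM against 28.0, 29.7 and 28.1 CPM, and *Neu1* at 25.5, 24.1 and 27.5 CPM against 27.4, 28.6 and 24.98 CPM. Their log2 fold changes were 0.08 ± 0.07 and 0.07 ± 0.08 (SE), and the groups of *Neu1* overlapped.

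*Ctsz* and *Tpp1*, named after their values were seen, were called higher by DESeq2 and not by edgeR. *Ctsz*, a carboxypeptidase, was at 47.3, 49.0 and 51.7 CPM in the controls and at 58.9, 60.1 and 59.5 CPM in FlncgKO. Its log2 fold change was 0.27 ± 0.05 (SE), and that of *Tpp1*, the tripeptidyl peptidase, was 0.24 ± 0.06 (SE). *Ctsb*, an abundant cysteine protease, was at 217, 222 and 238 CPM against 224, 226 and 254 CPM and overlapped (0.06 ± 0.07 SE). *Ctsc*, which activates the serine proteases of immune cells, was at 23.2, 25.3 and 27.4 CPM in the controls and 21.1, 21.2 and 21.4 CPM in FlncgKO. Every FlncgKO library of *Ctsc* lay below every control, with a log2 fold change of -0.25 ± 0.08 (SE). *Ctsd*, *Ctsl* and *Ctsh* had log2 fold changes of 0.09 to 0.23. By the quantifier's estimate the protein-coding transcript of *Ctsh* held 85.4% of its counts in the controls and 47.25% in FlncgKO. A transcript annotated for nonsense-mediated decay held 11.7% and 31.3%. These shares pool the libraries of a genotype. The estimated counts of the decay transcript were 0, 17.57 and 22.4 in the controls and 21.21, 65.87 and 39.99 in FlncgKO. Those of the protein-coding transcript were 117.6, 95.97 and 78.53 against 90.91, 48.97 and 51.95. FlncgKO replicate 1 lay within the control range for both transcripts, so the groups overlapped. The log2 fold change of *Ctsh* ran from 0.05 with the Y-linked covariate to 0.64 with transcript length offsets.

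*Ctsk*, the collagen-cutting cathepsin of osteoclasts, followed single libraries rather than genotype. It was at 1.01, 1.64 and 3.57 CPM in the controls and 2.10, 0.57 and 5.58 CPM in FlncgKO, with a log2 fold change of 0.40 ± 0.88 (SE) that ran from -0.63 without FlncgKO replicate 3 to 1.04 without control replicate 3. *Ctss*, the cathepsin of macrophages, was at 0.27, 0 and 0.72 CPM against 0.09, 0.04 and 0.99 CPM. Both were highest in the libraries numbered 3. There the cathepsin genes of the mouse placenta, 9 genes listed after the data were seen, summed to 3.87 and 13.0 CPM, against 0 to 1.12 CPM in the other libraries, and 5 of the 9 had no count there. Macrophage and myeloid markers summed to 14.6, 16.4 and 29.1 CPM in the controls and 19.1, 14.4 and 41.7 CPM in FlncgKO. Within that sum *Csf1r* was at 5.99 and 15.85 CPM in the libraries numbered 3, against 0.917 to 2.19 CPM elsewhere. The macrophage marker *Adgre1* was at 0.145 and 0.104 CPM in the libraries numbered 3. The part of either cell type in the levels of *Ctsk* and *Ctss* was not tested.

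The 6 lipid enzymes and carriers, which digest or shuttle the lipids brought to the lysosome, held 0 genes called by edgeR or DESeq2. By unadjusted p (under 0.05) in edgeR 2 were higher and 0 lower, against 13.3% and 8.84% of all genes tested. *Psap* encodes prosaposin, the precursor of the saposins that present sphingolipids to their enzymes. It was at 312, 296 and 562 CPM in the controls and 337, 269 and 978 CPM in FlncgKO. Both libraries numbered 3 lay far above the others, and the log2 fold change of 0.44 ± 0.64 (SE) became -0.005 when both were left out. Without FlncgKO replicate 3 it was -0.37 and without control replicate 3 it was 0.80. The summed trophoblast markers stood at 1426 and 2370 CPM in those libraries, and *Prl3d1*, a placental lactogen gene, at 137 and 270 CPM against 0.579 to 19.5 CPM elsewhere. The part of placental RNA in the level of *Psap* was not tested.

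The excess of *Psap* lay in 1 of its transcripts. The transcript ENSMUST00000105465 had 4735, 3874 and 9255 estimated counts in the controls and 4953, 3480 and 16125 in FlncgKO. The transcript ENSMUST00000179238 had 1886, 2116 and 2274 against 2383, 2378 and 2335. Its counts thus stayed near those of the other libraries where the first was highest. The transcripts are 2646 and 2657 bases long, so the split between them is an estimate by the quantifier.

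**Figure D4:**
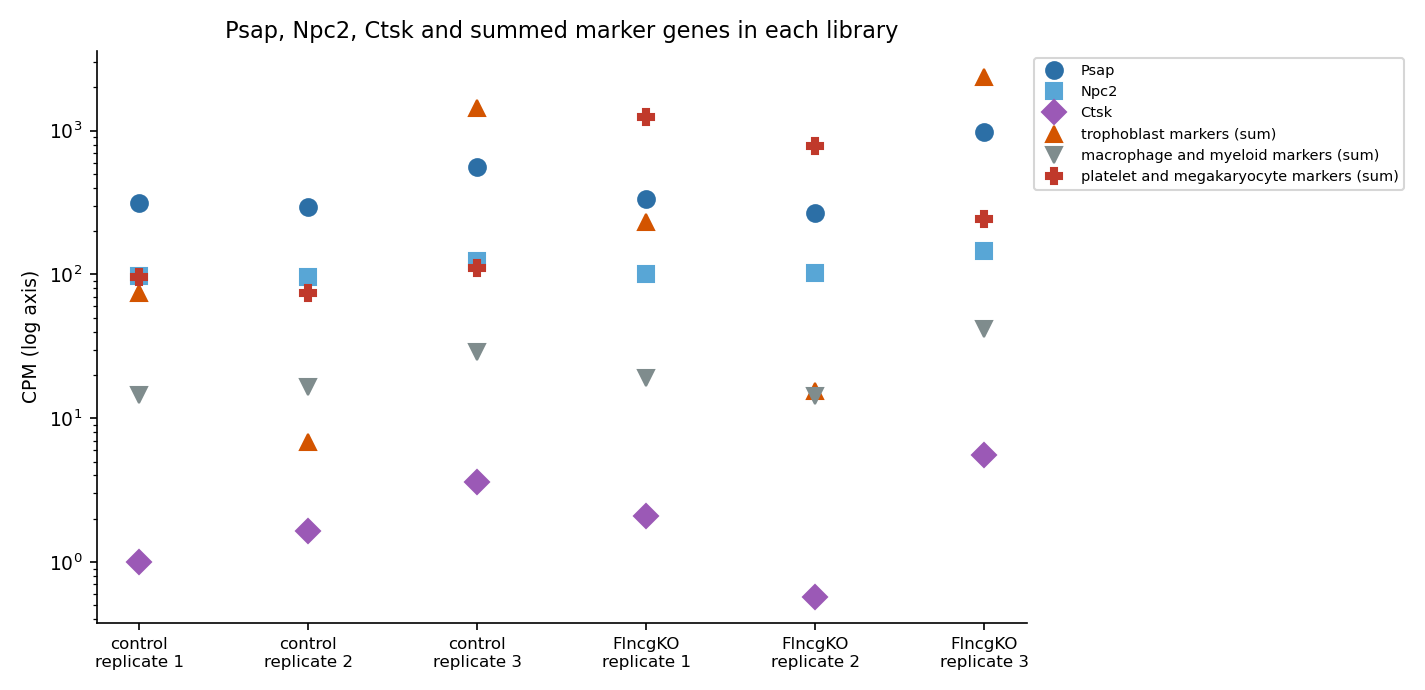
CPM, on a log axis, of *Psap*, *Npc2* and *Ctsk* and of the summed trophoblast, macrophage and platelet markers in each library. *Psap* and the trophoblast sum are highest in control replicate 3 and FlncgKO replicate 3, while the platelet sum is highest in FlncgKO replicates 1 and 2.

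*Npc2*, the soluble carrier of cholesterol, was likewise highest in both libraries numbered 3, at a smaller size, with 97.2, 96.2 and 125 CPM in the controls and 101, 103 and 145 CPM in FlncgKO. *Lipa*, the acid lipase that frees cholesterol from its esters, was at 29.7, 31.6 and 30.5 CPM against 33.1, 48.3 and 39.0 CPM (log2 fold change 0.39 ± 0.13 SE). All FlncgKO libraries of *Lipa* were above the controls, but replicate 2 exceeded the highest control by far more than replicate 1 did. *Ppt1*, the thioesterase that removes palmitate, was at 34.4, 33.9 and 33.3 CPM against 32.6, 31.9 and 33.1 CPM, a small non-overlapping difference (-0.06 ± 0.06 SE). *Smpd1*, the acid sphingomyelinase, was at 46.8, 47.0 and 51.0 CPM against 46.7, 43.4 and 57.7 CPM and overlapped. *Asah1*, the acid ceramidase, had a log2 fold change of 0.18. The median of the class was 0.16. It was -0.07 without FlncgKO replicate 3 alone and 0.04 without both libraries numbered 3.

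The 6 membrane proteins held 0 genes called by edgeR or DESeq2. By unadjusted p (under 0.05) in edgeR 2 were higher and 0 lower, against 13.3% and 8.84% of all genes tested. *Lamp1*, the most abundant of them in TPM and a main glycoprotein of the lysosomal membrane, was at 281, 285 and 268 CPM in the controls and 297, 289 and 279 CPM in FlncgKO (log2 fold change 0.05 ± 0.05 SE). *Lamp2*, its relative that is also needed for autophagosome fusion, was at 113, 120 and 116 CPM against 127, 147 and 126 CPM, with no overlap (0.20 ± 0.07 SE). *Cd63*, a tetraspanin of late endosomes and of platelet granules, was at 37.6, 46.1 and 49.5 CPM against 48.7, 57.4 and 64.8 CPM. FlncgKO replicate 1 of *Cd63* lay just under the highest control, and the log2 fold change was 0.36 ± 0.14 (SE). *Npc1*, the membrane exporter of cholesterol, was at 67.4, 66.6 and 62.6 CPM against 66.4, 68.9 and 67.2 CPM (0.04 ± 0.05 SE). *Scarb2*, the receptor that brings glucocerebrosidase to the lysosome, was at 47.0, 49.8 and 46.1 CPM against 43.0, 45.1 and 45.4 CPM, with every FlncgKO library below the controls (-0.10 ± 0.06 SE). *Mcoln1*, the calcium channel of the lysosome, had a log2 fold change of 0.13. The class summed to 579, 601 and 577 CPM in the controls and 621, 644 and 617 CPM in FlncgKO.

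*Tfeb* itself (ENSMUSG00000023990, chr17:47737030-47792419, plus strand) had the lowest log2 fold change of the members. It was at 20.6, 19.6 and 18.9 CPM in the controls and 15.3, 13.2 and 16.2 CPM in FlncgKO, with means of 19.7 ± 0.828 and 14.9 ± 1.56 CPM (SD, n = 3). Every FlncgKO library lay below every control, with a log2 fold change of -0.40 ± 0.10 (SE) and a range of -0.49 to -0.30 over the alternatives. DESeq2 called it lower, and edgeR did so only without FlncgKO replicate 3. These are transcript levels, and the amount or location of the TFEB protein was not measured.

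**Figure D5:**
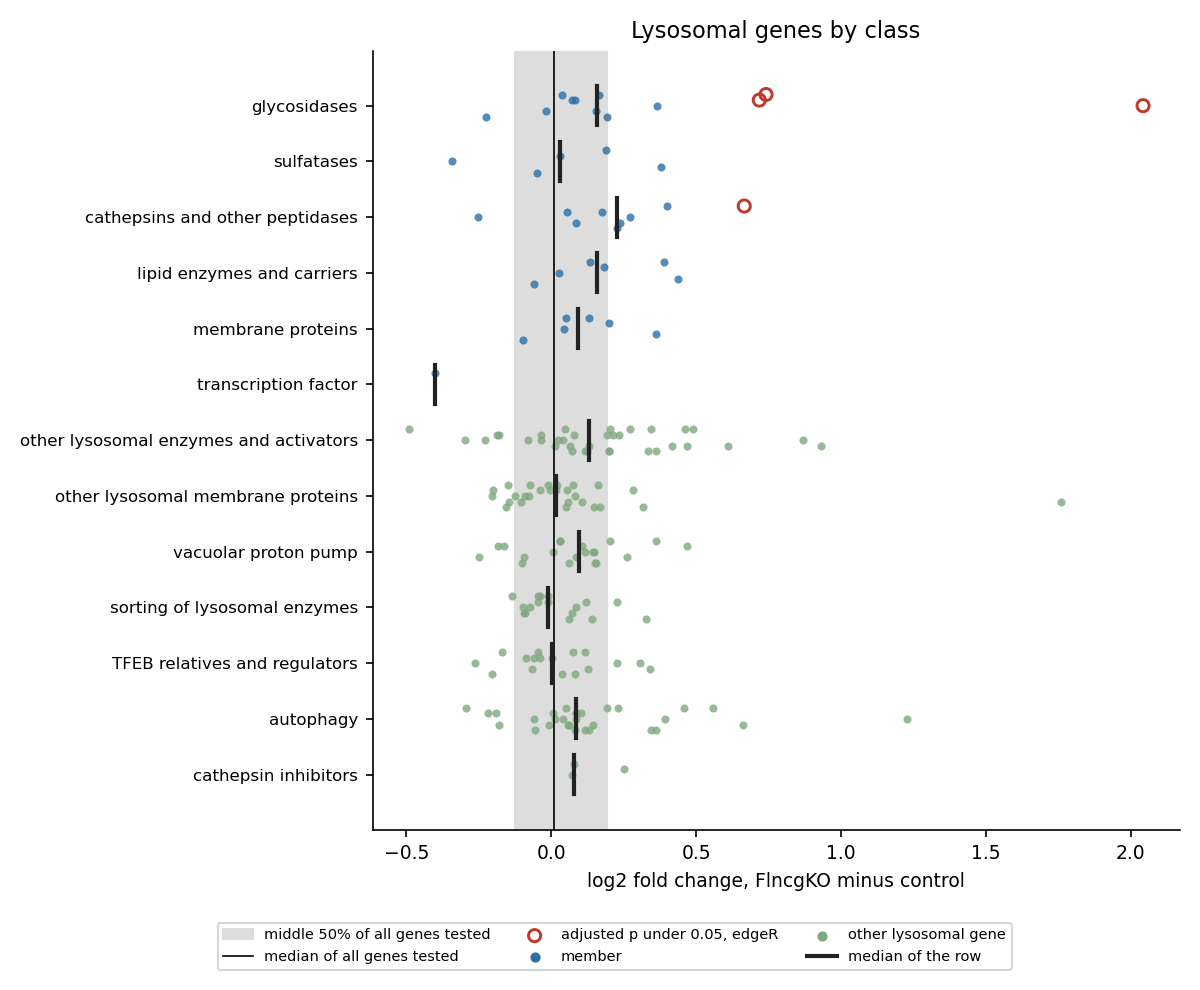
Log2 fold change (FlncgKO minus control) of the lysosomal genes described by class, members above and the other lysosomal lists below, with the median of each row and the middle 50% of all genes tested in grey. Open circles mark the 4 called by edgeR, *Hexa*, *Naglu*, *Hpse* and *Ctsa*.

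A further 7 lists held 158 other genes of the lysosome and its supply, of which 149 were tested. In edgeR's quasi-likelihood F-test with the Benjamini-Hochberg method 0 of them were called, against 1.31% of all genes tested, with 28 higher and 10 lower by unadjusted p (under 0.05), against 13.3% and 8.84% of all genes tested. DESeq2 called 11 higher and 0 lower, against 6.08% and 2.25% of all genes tested. Without FlncgKO replicate 3, where edgeR called 7.78% of all genes tested, it called 11 of them higher and 0 lower. Their median log2 fold change was 0.07. Of 35 tested enzymes and activators, 11 were higher and 2 lower by unadjusted p (under 0.05) and DESeq2 called 4 higher. The gene of smallest p was *Scpep1*, which encodes a serine carboxypeptidase related to that of *Ctsa*. It was at 37.6, 35.6 and 38.6 CPM in the controls and 44.5, 55.9 and 53.8 CPM in FlncgKO, with means of 37.3 ± 1.52 and 51.4 ± 6.07 CPM (SD, n = 3). The groups did not overlap, and the log2 fold change of 0.46 ± 0.09 (SE) had an adjusted p of 0.0586 in edgeR's quasi-likelihood test and of 0.00203 in DESeq2. *Prcp*, the prolylcarboxypeptidase gene, differed by 0.61 ± 0.14 (SE) on the log2 scale (adjusted p = 0.0763 in edgeR), also with no overlap.

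The other lists are given by their gene of smallest p, with adjusted p from the same quasi-likelihood fit. Among 27 tested membrane proteins, with 2 higher and 1 lower by unadjusted p (under 0.05) and 1 higher in DESeq2, *Laptm5*, a lysosomal protein of blood cells, was at 4.25, 3.91 and 5.60 CPM in the controls and 22.7, 15 and 8.87 CPM in FlncgKO (log2 fold change 1.76, adjusted p = 0.0755 in edgeR). Its FlncgKO libraries stood in the order of the platelet markers, whose part was not tested. Among 20 tested subunits of the vacuolar proton pump, which acidifies the lysosome, 4 were higher and 2 lower by unadjusted p (under 0.05) and DESeq2 called 1 higher. *Atp6v0d1* stood at a log2 fold change of 0.36 (adjusted p = 0.0725 in edgeR). Of 17 tested genes for the sorting of lysosomal enzymes, 2 were higher and 0 lower by unadjusted p (under 0.05) and DESeq2 called 0, with a log2 fold change of 0.33 for *Cln6* (adjusted p = 0.0990 in edgeR). Of 17 tested relatives and nutrient-sensing regulators of TFEB, 2 were higher and 3 lower by unadjusted p (under 0.05) and DESeq2 called 0. *Flcn*, the folliculin gene, was at 0.31 on the log2 scale (adjusted p = 0.101 in edgeR).

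Of 30 tested autophagy genes, whose products deliver cytoplasm to the lysosome, 7 were higher and 2 lower by unadjusted p (under 0.05). The shares of all genes tested were 13.3% and 8.84%. DESeq2 called 5 autophagy genes higher, against 6.08% of all genes tested. *Calcoco1*, an autophagy receptor, differed by 0.35 on the log2 scale (adjusted p = 0.0558 in edgeR), and *Atg9a*, the lipid scramblase of the growing autophagosome, 0.39 (adjusted p = 0.0659 in edgeR). The largest log2 fold changes of the list, named after their values were seen, were 1.23 for *Bnip3* and 0.66 for *Bnip3l*. Both genes lay above the controls in every FlncgKO library. Their adjusted p was 0.0972 and 0.0811 in edgeR and 0.00167 and 4.47e-05 in DESeq2. The median of the list was 0.09. Of 3 tested inhibitors of cathepsins, 0 were called by either tool or passed an unadjusted p of 0.05, and *Cst3*, the cystatin C gene, was at 0.08 on the log2 scale (adjusted p = 0.376 in edgeR).

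Other cell types known to be rich in lysosomes or in single members were read from their markers. All 14 platelet and megakaryocyte markers lay above the controls in every FlncgKO library. In edgeR 0 of the 14 were called and all 14 had an unadjusted p under 0.05, and DESeq2 called all 14 higher. The sum was lowest in FlncgKO replicate 3, where *Hexa* was also lowest and *Naglu* and *Ctsa* were not. Of 20 macrophage and myeloid markers 7 were tested and 0 called by edgeR, with 2 higher and 2 lower by unadjusted p (under 0.05). DESeq2 called 1 higher, *Fcer1g*, at 0.41, 0.05 and 1.16 CPM in the controls and 4.83, 3.35 and 1.41 CPM in FlncgKO. Its FlncgKO libraries stood in the order of the platelet markers. The defining marker *Adgre1* was at 0 in control replicates 1 and 2 and FlncgKO replicate 2 and at no more than 0.179 CPM elsewhere. Erythroid markers summed to 2689, 2643 and 7430 CPM in the controls and 7363, 6521 and 10150 CPM in FlncgKO. Endothelial markers summed to 940 to 1118 CPM in the controls and 1059 to 1278 CPM in FlncgKO, and edgeR called 1 of 12 higher, the endomucin gene *Emcn*. DESeq2 called 5 of the 12 higher and 2 lower, as many as had an unadjusted p under 0.05 in edgeR, and the median log2 fold change of the list was 0.26. Epicardial markers summed to 88.7 to 129.7 CPM in the controls and 91.2 to 117.8 CPM in FlncgKO. Visceral endoderm and liver bud markers were highest in control replicate 1, at 179 CPM against 26.0 to 84.5 CPM elsewhere, and 1 of 12 tested was called higher, *Sox17*, which endothelial cells also express. The other 11 had negative log2 fold changes with groups that overlapped, and 0 were called lower. The median log2 fold change of these 12 was -0.89, and -1.49 without both libraries numbered 3. Cardiomyocyte markers, which define the labelled tissue, were abundant in every library at 34314 to 42163 CPM. The part of these cell types in the levels of the lysosomal genes was not tested.

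In the control hearts the members spanned a wide range of levels, compared here in TPM, the transcripts of a gene per 1000000 transcripts, which allows for transcript length. *Psap* was at 238 ± 89.5 TPM and *Lamp1* at 236 ± 10.4 TPM (SD, n = 3), which did not differ beyond their spread. The mean of *Psap* was raised by control replicate 3, at 562 CPM against 312 and 296 CPM in control replicates 1 and 2. *Ctsl* and *Ctsd* followed at 182 ± 5.29 and 181 ± 7.40 TPM, again within their spread, then *Ctsb* at 134.7 ± 4.75 TPM and *Cd63* at 102 ± 14.6 TPM. These are the lysosomal membrane glycoprotein, the main endoproteases and the saposin precursor. The called members ranked lower, with *Ctsa* at 73.6 ± 5.98 TPM, *Hexa* at 30.6 ± 1.59 TPM and *Naglu* at 6.11 ± 0.389 TPM. *Hpse* was the lowest of the 40 at 0.267 ± 0.0914 TPM, close to *Ctss* at 0.457 ± 0.495 TPM and below *Ctsk* at 2.32 ± 1.47 TPM.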

How the data were processed

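Poly(A) RNA of E9.5 hearts was sequenced by the authors from stranded mRNA libraries and quantified with salmon against GENCODE M22 transcripts (GRCm38.p6). The labels name whole hearts, while the methods speak of hearts or isolated ventricles. The deposited files give, per transcript, estimated counts (not whole) and TPM. The estimated counts were summed per gene with GENCODE M21, in which 0.37% of 140658 transcripts, holding 0.108 to 0.131% of counts, had no gene and were left out, and then rounded. The deposited TPM were summed per gene and used only to compare levels between genes.

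Genes with low counts were removed (filterByExpr, minimum 10), and 16048 genes were fitted with edgeR 4.0.16 (quasi-likelihood F-test, robust, TMM scaling, R 4.3.3) in all 6 libraries, with p adjusted by the Benjamini-Hochberg method and called under 0.05. CPM are TMM-scaled. An SE is the log2 fold change divided by the square root of F. DESeq2 1.42.0 was an alternative, as were RLE scaling, library totals, no filter, transcript length offsets, the replicate number as a block, the Y-linked level as a covariate and leaving out each library. Leaving out both libraries numbered 3 was added after the data were seen. The code was tested on simulated data. An exact permutation test of 3 against 3 libraries could not go below p = 0.10 and was not used.

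The members and gene lists were chosen with earlier results of these data known, and trophoblast and placental cathepsin genes after the data were seen. Values in every library are given for the members called by edgeR and for the 2 highest and 2 lowest log2 fold changes of each class. Of each other list the called genes or the 1 or 2 of smallest p are named, most of them by log2 fold change and adjusted p only. *Bnip3* and *Bnip3l* were added for the size of their change. The list entries *Tmem55b* and *Ahsp* matched no gene symbol. A result on 1 gene of the other lysosomal lists is not reported here, and that gene is outside their counts. Promoters came from RefSeq (GRCm38.p6).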

Additional observations from a re-analysis of the deposited data

How the results depend on the processing

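The number of calls moved with the settings far more than the log2 fold changes did. For all genes, the other lysosomal genes and the members in turn, edgeR's quasi-likelihood test called 210, 0 and 4. It called 554, 4 and 4 without the filter, 76, 0 and 0 with transcript length offsets, and 0, 0 and 0 with the Y-linked covariate. DESeq2 called 1349, 11 and 7. With length offsets 12 members were higher and 2 lower by unadjusted p (under 0.05), and with the covariate 5 and 1. Leaving out 1 library gave 1 to 1272 genes, 0 to 11 other lysosomal genes and 0 to 5 members, the most without FlncgKO replicate 3. Leaving out both libraries numbered 3 gave 1241, 12 and 5. RLE scaling and library totals each left 3 members, without *Ctsa*. The causes were not tested. With the replicate number as a block 632 genes, 4 other lysosomal genes and 5 members were called, *Cd63* being added. Same-numbered libraries correlated in their deviations at 0.09, 0.57 and 0.62. Control replicates 2 and 3 correlated best with the FlncgKO library of their own number, and control replicate 1 with FlncgKO replicate 2 (0.27). No label says that a number marks a litter, so the libraries were not treated as paired in the main fit. Of 546 log2 fold changes of members under the alternatives, 24 moved by more than the spread between replicates, as did 3 of 84 class medians. Depth limits *Hpse* and *Ctss*, which had the fewest counts.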
